A study of Mus musculus with 95 samples.

Results

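Haematopoietic stem cells (HSC) were compared with the progenitor population named HPC-2 in mice at 5 to 16 weeks after a bone marrow transplant. The members were chosen by their titles: all 18 HSC libraries of weeks 5, 6, 8, 10, 13 and 16, and 16 of the 18 HPC-2 libraries of the same weeks, which makes 34 of the 95 libraries of the series. HPC-2 8 weeks replicate 2, which nearly equalled an HPC-1 library of week 5, and HPC-2 13 weeks replicate 1, which nearly equalled an HSC library of steady state, were left out. Each week and population held 3 libraries, apart from HPC-2 at 8 and 13 weeks with 2 each.

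All cells came from B6.SJL mice, with an age of 8 to 12 weeks in the labels. Recipients had been given 900 cGy of irradiation and 8000 lineage-negative Sca-1+ Kit+ (LSK) cells, and the sorted cells were pooled into bulk libraries with SMART-Seq v4 and Nextera XT. The series also holds the population HPC-1, untreated mice (steady state) and weeks 3 and 4. The labels give 1 sort gate for every sample, LSK CD48- CD150+, and do not give a separate gate for HPC-2. The description labels carry a different code for each population, without saying what it stands for. Whether the replicates of a group were separate animals is not in the labels. The p-values therefore describe only the variation among these libraries, which may be technical.

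The LSK compartment of mouse marrow holds the stem cells and their nearest offspring, which are told apart by the SLAM surface proteins CD150 and CD48. HSC are CD150+ CD48- cells that divide rarely and can rebuild all blood lineages, and HPC-2 is the usual name of CD150+ CD48+ cells, which divide more often and lean towards megakaryocytes, red cells and myeloid cells. After a transplant the few stem cells that home to the marrow must both renew themselves and supply these progenitors.

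Total counts ran from 4635131 to 8492759 per library and detected genes from 4903 to 14615. Fewer than 10000 genes were detected in HSC 13 weeks replicate 2, HSC 16 weeks replicate 3 and HPC-2 16 weeks replicates 1 and 2. By Spearman correlation with the mean of each population's other libraries all 16 HPC-2 libraries were nearest to the HPC-2 mean. The same held for 15 of 18 HSC libraries and the HSC mean. HSC 6 weeks replicate 3, 10 weeks replicate 1 and 13 weeks replicate 1 were nearer to a progenitor mean and were kept. The left-out HPC-2 8 weeks replicate 2 was nearest to the HPC-1 mean (correlation 0.848, against 0.766 with HPC-2). Leaving it out therefore fixed part of the HPC-2 count. The left-out HPC-2 13 weeks replicate 1 was nearest to the HPC-2 mean (0.676, against 0.575 with HSC). HPC-2 5 weeks replicate 2 nearly equalled HPC-2 4 weeks replicate 1, which was left out of the comparison with weeks 3 and 4. Levels below are in CPM, a gene's counts scaled by the total of its library, and log2 differences are HSC over HPC-2 from an edgeR quasi-likelihood fit with week as a block, with the standard error (SE). In bulk libraries, fewer cells of a type and less RNA per cell cannot be told apart.

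Across weeks 5 to 16, HSC had more RNA of stem cell genes such as Procr and Pdzk1ip1 and of the membrane protein gene Ifitm1, and less RNA of 11 of 32 mitosis genes such as Top2a, 6 of 36 DNA replication genes such as Mcm6, and the early red cell genes Car1, Klf1 and Gata1. Of 10143 genes tested, 599 were called at an adjusted p under 0.05 (5.91%), 462 higher (4.55%) and 137 lower (1.35%) in HSC. The median log2 difference over all genes was 0.0024. Of the called genes, 286 of the 462 were higher and 123 of the 137 lower in HSC by the mean of every one of the 6 weeks. Of all 10143 tested genes, 1688 kept 1 direction in all 6 weeks. The calls were made from the same libraries, so this is no separate support for them. The split between directions depended on the scaling. With the RLE scaling 309 genes were higher and 275 lower, so the share higher went from 77.1% to 52.9% and the median of all genes moved to -0.26.

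A measure of the libraries moved with the populations and touches every count that follows. Genes of under 1000 exonic bases took 6.94% ± 1.54 (SD, n = 18) of the counts in HSC and 4.89% ± 1.71 (n = 16) in HPC-2 (permutation test, 100000 resamples, two-sided, p = 0.00116, adjusted p = 0.00638 over 11 library measures). In a fit that also held each library's short-gene share, an alternative chosen after the data were seen, 57 genes were called, 39 higher and 18 lower, and 49 of them were among the 599. Of 113 called genes followed through all alternatives, 26 were still called in it. These were Ipo11, Ifitm1, Ifitm3, Gng11, Pdzk1ip1, Procr, Gbp8, Cldn10, Erp27, Plxna4os1, Cpne8, Hmga2, Nupr1, Gstm1, Map1lc3b, Jam3, Id1, Myct1, Gm19590, Gimap4, Gimap6 and Gimap8 on the higher side and Car1, Cst7, Csrp3 and Clec4d on the lower side. Whether the share is a property of the cells or of the libraries was not tested. The share differed between the populations, so as a covariate it takes up part of the difference between them. A call lost in that fit does not show that the populations were alike.

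In 12 of the 10143 genes (0.118%) no HSC library overlapped any HPC-2 library. Ipo11 (chromosome 13, 106794439 to 106936958, minus strand), a nuclear import receptor, ran from 454 to 1498 CPM in HSC with a median of 818, and from 66.4 to 453 CPM in HPC-2 with a median of 261. The groups met at HSC 6 weeks replicate 3 (454 CPM) and HPC-2 5 weeks replicate 3 (453 CPM). Its log2 difference was 1.85 (SE 0.19, adjusted p = 2.95e-07), the smallest adjusted p of the comparison. Ifitm1 (chromosome 7, 140967221 to 140969825, plus strand) encodes an interferon-inducible membrane protein that hinders virus entry. It was at 548 to 2686 CPM in HSC, with a median of 1449, and at 32.3 to 438 CPM in HPC-2, with a median of 193. The 3 lowest HSC libraries were those nearer to a progenitor mean, and its log2 difference was 2.85 (SE 0.32, adjusted p = 6.77e-07).

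Gng11, a G protein gamma subunit of platelets and endothelium, was at 235 to 878 CPM in HSC (median 464) and 59.2 to 235 CPM in HPC-2 (median 144). The lowest HSC libraries, again HSC 6 weeks replicate 3, 10 weeks replicate 1 and 13 weeks replicate 1, lay next to the highest HPC-2 library, and the log2 difference was 1.98 (SE 0.22, adjusted p = 6.77e-07). Hmga2, a chromatin protein of fetal stem cells, was at 38.8 to 343 CPM in HSC (median 98.1) and 0.173 to 36.7 CPM in HPC-2 (median 12.7). Its log2 difference was 3.37 (SE 0.53, adjusted p = 1.21e-04). Among the other genes with separate libraries were Pdzk1ip1, Hmgn3, Hacd4, Il4 and the long noncoding RNA gene Gm19590 on the higher side, and Mfsd2b and Cd48 on the lower side. Hmgn3, a nucleosome-binding protein, ran from 294 to 724 CPM in HSC and from 0 to 239 CPM in HPC-2, where 1 library had no count.

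**Figure D1:**
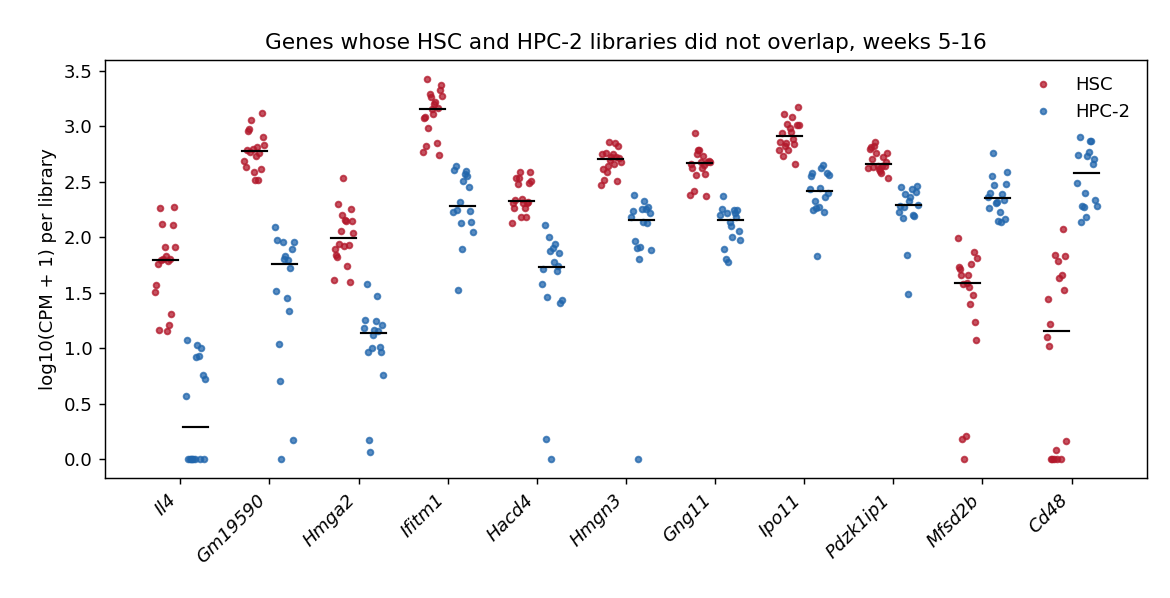
Level of 11 of the 12 genes without overlap, as log10(CPM + 1), in each of the 18 HSC (red) and 16 HPC-2 (blue) libraries; black lines are medians. Il4 to Pdzk1ip1 lie higher in every HSC library, and Mfsd2b and Cd48 lower.

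The genes of the sort markers describe the gate and are no finding. Cd48 ran from 0 to 118 CPM in HSC (median 13.5) and from 136 to 795 CPM in HPC-2 (median 384), with no overlap (log2 difference -3.79, SE 0.76, adjusted p = 0.00242). The HPC-2 libraries carried the RNA of a protein that the labelled gate would sort away. Slamf1, which encodes CD150, did not pass the test (median 86.5 CPM in HSC and 75.4 CPM in HPC-2, adjusted p = 0.566), nor did Kit (159 and 116 CPM, adjusted p = 0.827). Ly6a, the gene of Sca-1, was at 172 to 705 CPM in HSC (median 425) and 0 to 344 CPM in HPC-2 (median 96.7). HPC-2 libraries of weeks 5 and 6 reached into the HSC range, and the log2 difference was 2.45 (SE 0.46, adjusted p = 0.00134).

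Of 26 tested genes of HSC identity, 4 were higher and 1 lower in HSC, 19.2% called against 5.91% of all genes, and the median log2 difference was 1.21 against 0.0024. Procr (chromosome 2, 155751117 to 155755471, plus strand), the endothelial protein C receptor and a surface marker of stem cells, was at 0 to 283 CPM in HSC with a median of 76.3. In HPC-2 14 of 16 libraries had no count, and the other two were at 2.98 and 19.8 CPM. HSC 6 weeks replicate 1, 5 weeks replicate 2 and 16 weeks replicate 3 were under 1 CPM, so the groups overlapped, and the log2 difference was 8.27 (SE 1.31, adjusted p = 1.34e-04). Pdzk1ip1, a small membrane protein used to mark stem cells in reporter mice, was at 342 to 722 CPM in HSC (median 462) and 29.9 to 289 CPM in HPC-2 (median 193; log2 difference 1.56, SE 0.22, adjusted p = 2.07e-05).

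Mllt3, a chromatin reader that maintains stem cells, was at 78.1 to 504 CPM in HSC (median 256) and 0 to 407 CPM in HPC-2 (median 28.9). The HPC-2 libraries lay at 95.4 CPM or lower apart from 16 weeks replicate 1, and the log2 difference was 2.67 (SE 0.57, adjusted p = 0.00391). Hlf, a transcription factor of stem cells, was at 15.0 to 282 CPM in HSC (median 81.4) and 0 to 247 CPM in HPC-2 (median 15.1). The same HPC-2 library was the highest, at 247 CPM, and the log2 difference was 1.93 (SE 0.50, adjusted p = 0.0149). Gata2, a transcription factor shared by stem cells, mast cells and megakaryocyte precursors, was lower in HSC, with medians of 62.1 and 131 CPM (log2 difference -1.16, SE 0.30, adjusted p = 0.0141). Mecom, another stem cell regulator, was at a log2 difference of 2.13 but did not pass (adjusted p = 0.0617), and Meis1 and Erg were at 0.50 and 1.08 (adjusted p = 0.395 and 0.446).

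The list of genes known to rise in aged HSC held 19 tested members, of which 3 were higher and 0 lower. That is 15.8% called, against 5.91% of all genes, and the median log2 difference was 1.17. Nupr1, a stress-response chromatin protein, was at 51.8 to 857 CPM in HSC (median 188) and 13.5 to 127 CPM in HPC-2 (median 33.8; log2 difference 2.55, SE 0.33, adjusted p = 5.89e-06). Clu, a secreted chaperone, was detected in 14 of 18 HSC and 5 of 16 HPC-2 libraries (log2 difference 6.09, SE 1.47, adjusted p = 0.00928). Mllt3 is in both lists. Vwf and Slamf1, also in the ageing list, did not pass (log2 difference 0.61 and 0.53, adjusted p = 0.732 and 0.566).

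By the naming rule (a mean of at least 10 CPM and 80% of each population's libraries on its own side of the midpoint), the 14 genes with the largest rise were Gbp8, Procr, Sult1a1, Cldn10, Erp27, Pde6h, Plxna4os1, Cpne8, Il4, Mir155hg, Glipr1l1, Dync2li1, Hes1 and Lhcgr, with log2 differences from 9.23 to 4.21. Most were nearly silent in HPC-2: the HPC-2 median was 0 CPM for 8 of them and at most 1.67 CPM for the other 6. Gbp8, an interferon-inducible GTPase, was at 0.160 to 209 CPM in HSC (median 27.6) and had counts in 2 of 16 HPC-2 libraries, at 1.53 and 8.00 CPM. Its log2 difference was 9.23 (SE 1.28, adjusted p = 2.07e-05), and all 3 HSC libraries of week 5 were under 5 CPM. Gbp8 shares exonic sequence positions with Gbp4 and Gbp9 on the same strand, so reads of these relatives cannot be told apart with certainty.

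Sult1a1, a sulfotransferase, was at 0 to 409 CPM in HSC (median 60.8) and at most 5.33 CPM in HPC-2 (log2 difference 7.82, SE 1.68, adjusted p = 0.00413). It overlaps Sgf29 on the other strand, as Pde6h overlaps Arhgdib. The strand setting of the counting was not given in the sources used here. Cldn10, a tight junction protein, was at 0 to 146 CPM in HSC (median 17.6) and at most 3.14 CPM in HPC-2 (log2 difference 7.35, SE 1.46, adjusted p = 0.00212). Il4, the cytokine of type 2 immunity, was at 13.4 to 185 CPM in HSC (median 62.0) and 0 to 10.9 CPM in HPC-2, with no overlap (log2 difference 4.96, SE 1.07, adjusted p = 0.00413). Hes1, a target of Notch signalling, was at 4.47 to 149 CPM in HSC (median 16.4) and 0 to 13.6 CPM in HPC-2 (median 1.07; log2 difference 4.47, SE 0.84, adjusted p = 0.00132). Lhcgr, the receptor of luteinizing hormone, was at 0 to 505 CPM in HSC (median 80.6) and 0 to 68.8 CPM in HPC-2 (median 1.67; log2 difference 4.21, SE 1.03, adjusted p = 0.0103).

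**Figure D2:**
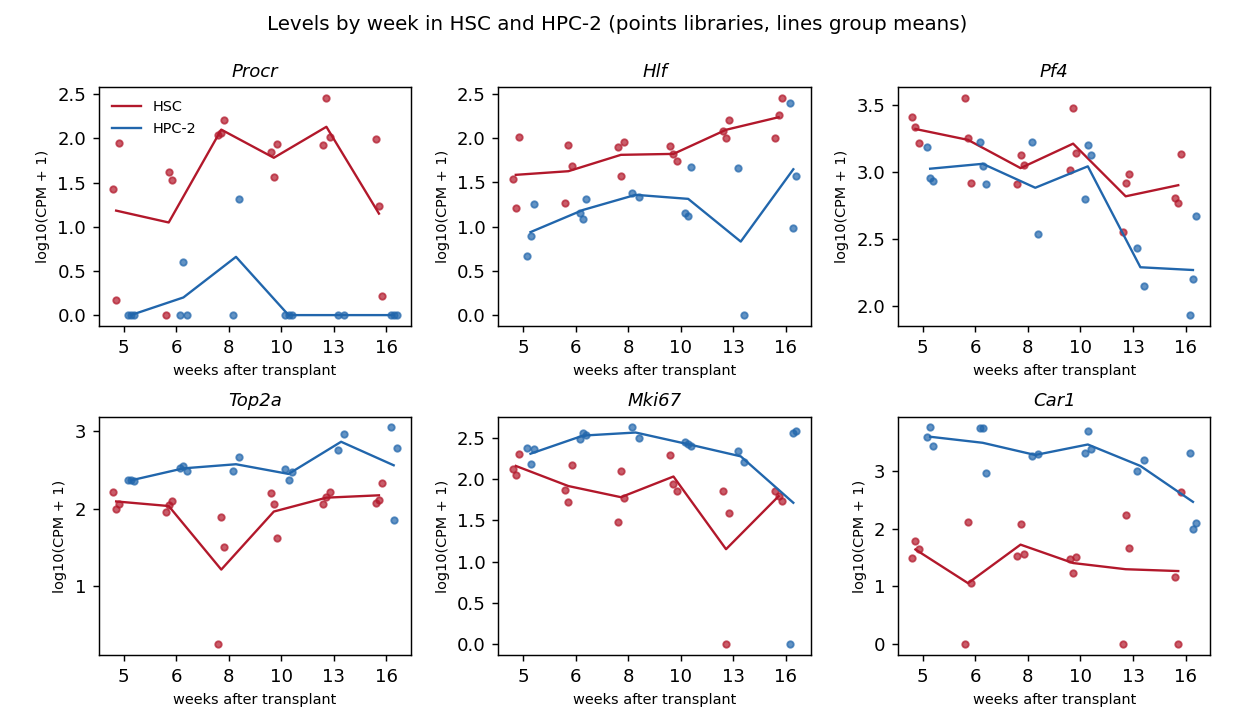
Level of Procr, Hlf, Pf4, Top2a, Mki67 and Car1 by week, as log10(CPM + 1); points are libraries and lines join the means of the log values, HSC in red and HPC-2 in blue. Procr and Hlf lie mostly higher and Top2a and Car1 mostly lower in HSC, and for Mki67 1 library of each population, HSC 13 weeks replicate 2 and HPC-2 16 weeks replicate 1, had no count.

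Genes of cell division were among those lower in HSC. Of 32 tested mitosis genes, 0 were higher and 11 lower (34.4% called), and the median log2 difference was -1.69. The called genes were Top2a, Ccnb2, Aurkb, Kif20a, Kif11, Hmmr, Cdk1, Prc1, Birc5, Mki67 and Bub1. Top2a (chromosome 11, 98992943 to 99024189, minus strand), the topoisomerase that untangles chromosomes, was at 0.777 to 214 CPM in HSC (median 116) and 69.9 to 1126 CPM in HPC-2 (median 317). Of the HPC-2 libraries, 16 weeks replicate 2 at 69.9 CPM alone was not above every HSC library. Its log2 difference was -1.73 (SE 0.33, adjusted p = 0.00132).

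Aurkb, a kinase of chromosome segregation, was at 0 to 110 CPM in HSC (median 39.2) and 28.8 to 547 CPM in HPC-2 (median 211; log2 difference -2.55, SE 0.63, adjusted p = 0.0105). Bub1, a kinase of the spindle checkpoint, was at 0 to 92.9 CPM in HSC (median 28.7) and 22.6 to 408 CPM in HPC-2 (median 101; log2 difference -1.94, SE 0.60, adjusted p = 0.0469). Mki67, a protein of the surface of dividing chromosomes, had medians of 71.1 and 270 CPM (log2 difference -1.56, SE 0.48, adjusted p = 0.0451). The calls of Bub1 and Mki67 lay near the threshold and were lost without 23 and 26 of the 34 libraries when each was left out in turn. Leaving out HPC-2 8 weeks replicate 3 left 4 mitosis genes called, and leaving out HPC-2 16 weeks replicate 1 gave 17. With the short-gene share in the fit, none of the called mitosis genes listed above was called. In that fit 1 other gene of the list was called, and the list median was -0.93. Cdk6, a kinase that drives exit from quiescence, was lower too, with medians of 120 and 303 CPM (log2 difference -1.28, SE 0.38, adjusted p = 0.0355).

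Of 36 tested DNA replication genes, 0 were higher and 6 lower (16.7% called), with a median log2 difference of -1.001. They were Mcm5, Mcm6, Mcm7 and Mcm10, which build or load the replicative helicase, Pola2, a subunit of the priming polymerase, and Tyms, which makes thymidylate. Such genes are textbook targets of E2F factors, so the letters TTTCCCGC, TTTGGCGC and TTTCGCGC were searched on both strands of RefSeq promoters (GRCm38.p6, 250 bases before to 50 after the start). At least 1 of them was in 573 of 27025 promoter genes (2.12%), in 4.56% of the tested genes and in 14 of 31 tested replication genes with a promoter (45.2%). Of the tested mitosis genes with a promoter 1 of 28 held one (3.57%). Among the 6 lower genes, Mcm5, Mcm6 and Mcm7 held a match and Mcm10, Pola2 and Tyms did not. The promoters of the 3 with a match are shown 5′ to 3′ with the matches in capitals, from chr8:75109259-75109558, plus strand (Mcm5), chr1:128359656-128359955, minus strand (Mcm6) and chr5:138171834-138172133, minus strand (Mcm7, the first of 2 listed starts; the second held no match).
Mcm5: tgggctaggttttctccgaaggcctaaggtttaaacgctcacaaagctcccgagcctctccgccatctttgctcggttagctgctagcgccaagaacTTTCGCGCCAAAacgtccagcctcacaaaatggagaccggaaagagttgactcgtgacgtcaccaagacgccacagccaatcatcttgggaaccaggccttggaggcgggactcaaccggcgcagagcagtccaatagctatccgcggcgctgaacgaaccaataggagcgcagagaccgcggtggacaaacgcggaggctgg
Mcm6: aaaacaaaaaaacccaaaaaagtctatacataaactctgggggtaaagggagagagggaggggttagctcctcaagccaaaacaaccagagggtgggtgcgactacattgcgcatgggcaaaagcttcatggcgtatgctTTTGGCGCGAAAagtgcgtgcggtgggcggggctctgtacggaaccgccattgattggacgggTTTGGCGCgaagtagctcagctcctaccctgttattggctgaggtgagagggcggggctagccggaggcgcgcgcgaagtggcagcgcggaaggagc
Mcm7: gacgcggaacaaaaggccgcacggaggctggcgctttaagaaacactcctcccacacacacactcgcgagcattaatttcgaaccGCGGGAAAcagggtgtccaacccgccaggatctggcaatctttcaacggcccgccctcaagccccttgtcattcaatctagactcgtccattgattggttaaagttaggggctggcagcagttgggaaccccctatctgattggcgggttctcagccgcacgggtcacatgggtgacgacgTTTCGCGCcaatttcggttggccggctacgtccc
In Mcm5 the 2 matches, TTTCGCGC and the reverse complement of TTTGGCGC, overlap in 1 run. A match is a description of letters and not of a bound site.

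Mcm6 was at 5.84 to 535 CPM in HSC (median 170) and 132 to 1615 CPM in HPC-2 (median 404; log2 difference -1.50, SE 0.36, adjusted p = 0.00969). The highest HSC libraries, 10 weeks replicate 1 and 13 weeks replicate 1, were among those nearer to a progenitor mean. Mcm5 had medians of 44.7 and 107 CPM (log2 difference -1.91, SE 0.59, adjusted p = 0.0487), and Mcm7 had medians of 93.4 and 149 CPM (log2 difference -0.95, SE 0.26, adjusted p = 0.0218). Mcm7 overlaps Ap4m1 and Cops6 on the other strand. Pcna and Rrm2, which did not pass, were at log2 differences of 0.00097 and -1.30 (adjusted p = 0.998 and 0.102). The calls of Mcm5 and Pola2 were lost without 24 and 21 of the 34 libraries left out in turn. Without HPC-2 8 weeks replicate 3, 2 replication genes were called, and with the short-gene share in the fit 0 were.

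Of 18 tested early red cell genes, 3 were lower in HSC and 0 higher (16.7% called). The median log2 difference of the list was -0.66, and 6 of its 18 tested members were above 0. Another 10 of its 28 genes were not tested. Without the filter on low counts, where 1416 genes were called in all, 8 of 27 were lower and 1 higher. Car1 (chromosome 3, 14766216 to 14808368, minus strand), the carbonic anhydrase of early erythroid progenitors, was at 0 to 431 CPM in HSC (median 31.9) and 95.9 to 5552 CPM in HPC-2 (median 1992). The HPC-2 range came down to that of HSC only in 2 libraries of week 16, and the log2 difference was -5.24 (SE 0.93, adjusted p = 0.00119). Klf1, the master transcription factor of red cells, was at 0 to 50.1 CPM in HSC (median 2.57) and 0 to 294 CPM in HPC-2 (median 143; log2 difference -4.71, SE 0.95, adjusted p = 0.00242). Gata1, a transcription factor of red cells and megakaryocytes, had medians of 42.2 and 187 CPM (log2 difference -2.24, SE 0.47, adjusted p = 0.00355). The summed level of 10 genes of mature erythroblasts was 14.0 to 2380 CPM in HSC and 3.79 to 470 CPM in HPC-2, with medians of 93.7 and 161 CPM (permutation test, adjusted p = 0.607 over the library measures).

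Of 23 tested megakaryocyte and platelet genes, 3 were higher (13.0% called, median log2 difference 0.45) and 0 lower. They were Gng11, Pf4 and Cd9. The split depended on the scaling and the libraries: it was 2 higher and 2 lower with RLE, 2 and 6 with DESeq2, and 4 and 3 without libraries of under 10000 genes. Pf4, a platelet chemokine, was at 356 to 3573 CPM in HSC (median 1230) and 84.0 to 1692 CPM in HPC-2 (median 835). The 4 lowest HPC-2 libraries were from weeks 13 and 16, and the log2 difference was 1.16 (SE 0.28, adjusted p = 0.00945). The integrin gene Itga2b and the glycoprotein gene Gp5 were at -1.30 and -2.14 and did not pass (adjusted p = 0.266 and 0.10).

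The mast cell and basophil list split, with 3 of 9 tested genes higher (Il4, Ccl4 and Srgn) and 3 lower (Csrp3, Lat2 and Cpa3). That is 66.7% called, against 5.91% of all genes. Csrp3, a LIM domain protein best known from muscle, had counts in 5 of 18 HSC libraries, at most 27.9 CPM, and in 14 of 16 HPC-2 libraries, with a median of 30.5 and at most 174 CPM (log2 difference -6.54, SE 1.17, adjusted p = 7.57e-04). Cpa3, the mast cell carboxypeptidase, had medians of 23.1 and 144 CPM (log2 difference -2.33, SE 0.68, adjusted p = 0.0344). In the granulocyte and monocyte list 3 of 16 tested genes were called (18.8%). Cd63, a tetraspanin of granules, and Lyz2, lysozyme, were higher (log2 difference 0.99 and 0.89). Nkg7, a granule membrane protein, was lower (log2 difference -1.56). With the RLE scaling 1 gene of the list was higher and 2 lower. Lyz2 was highest of all in an HPC-2 library, 16 weeks replicate 2 at 4312 CPM, against at most 2350 CPM in HSC. The summed level of 18 genes of monocytes, macrophages and neutrophils had medians of 1505 CPM in HSC and 916 CPM in HPC-2 (range 909 to 12851 and 309 to 8233 CPM, adjusted p = 0.127), with Fcgr1 at 0 in all 34 libraries, and its part in these results was not tested.

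Among called genes that met the naming rule given above for the rises, the other genes with the largest falls were Cst7, Nek2, Optn, Top3b, Clec4d, Cit, Mfsd2b, Ripor1 and H2afx, beside Csrp3, Car1, Lat2, Bub1 and Top2a. Cst7, an inhibitor of lysosomal proteases, had no count in 10 of 18 HSC libraries and reached 85.3 CPM, while in HPC-2 it had a median of 95.5 CPM and a single library without counts, 16 weeks replicate 1 (log2 difference -6.86, SE 1.12, adjusted p = 2.15e-04). Clec4d, a lectin receptor of myeloid cells, was at 0 to 74.9 CPM in HSC (median 15.6) and 54.1 to 497 CPM in HPC-2 (median 185; log2 difference -3.20, SE 0.62, adjusted p = 0.00175). Mfsd2b, a lipid transporter of red cells and platelets, was at 0 to 97.2 CPM in HSC (median 37.5) and 137 to 579 CPM in HPC-2 (median 224; log2 difference -2.71, SE 0.49, adjusted p = 8.05e-04). H2afx, the histone variant that marks DNA breaks, was at 0 to 385 CPM in HSC and 345 to 805 CPM in HPC-2, where HSC 6 weeks replicate 3 alone reached the HPC-2 range (log2 difference -1.57, SE 0.37, adjusted p = 0.0082). Lat2 and Top3b overlap Rfc2 and Vpreb1 on the other strand, and Rfc2 was lower too (log2 difference -0.86). Nek2, Optn and H2afx also overlap a gene on the other strand. The call of Lat2 was lost without 27 of the 34 libraries left out in turn, and those of Optn and Top3b without 14 each.

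Of 29 tested interferon response genes, 4 were higher (13.8% called) and 0 lower. They were Ifitm1, Ifitm3 and Ifitm2, all of 1 gene family, and Ly6a, which is also a sort marker gene. Ifit1 and Irf7, central genes of the response, did not pass (log2 difference 2.27 and -0.13, adjusted p = 0.435 and 0.971). Ifitm3 was at 965 to 2554 CPM in HSC (median 1991) and 287 to 1531 CPM in HPC-2 (median 799; log2 difference 1.33, SE 0.20, adjusted p = 5.42e-05). Of 21 tested homing and adhesion genes 3 were called (14.3%). Jam3, a junction protein of stem cells, and Cd9 were higher (log2 difference 5.14 and 0.59). Itgb7, an integrin of gut homing, was lower (log2 difference -5.13, SE 1.17, adjusted p = 0.00679). With the RLE scaling 1 homing gene was higher and 1 lower.

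Other lists had few or no calls. Among 17 tested genes of quiescence and cyclin kinase inhibitors 0 were called, with Cdkn1c, which holds stem cells in G0, at a log2 difference of 3.29 (adjusted p = 0.145). Among 10 lymphoid priming genes 0 were called. Of 34 ribosome biogenesis genes 2 were lower (5.88% called), Ncl and Ybx3, and of 28 chaperone genes Hsp90ab1 and Hspa8 were lower (7.14% called, log2 difference -1.08 and -0.58). These 2 shares are near the 5.91% of all genes, but they rose with another scaling or tool. With the RLE scaling 5 of 34 ribosome biogenesis and 8 of 28 chaperone genes were lower, and with DESeq2 11 of 34 and 12 of 27.

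**Figure D3:**
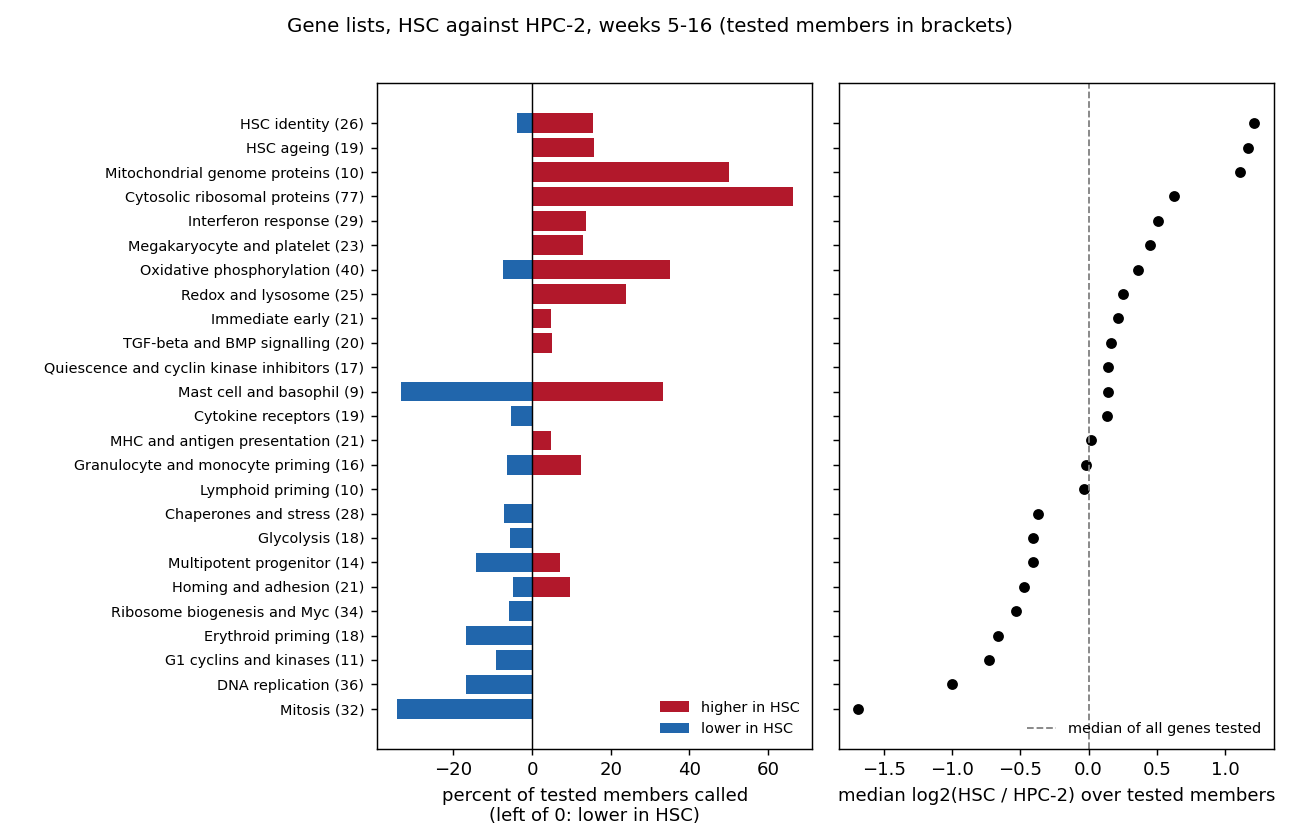
Left, percent of the tested members called higher (red) or lower (blue, drawn left of 0) in HSC, for the lists with 9 or more tested genes, without the marker lists of other cells; right, median log2 difference over the tested members, with the median of all genes as a dashed line. Of the lists drawn, Mitosis lies lowest, with 11 of 32 lower and a median of -1.69, and HSC identity lies highest, with a median of 1.21.

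Of 40 tested genes of oxidative phosphorylation, 14 were higher and 3 lower in HSC (42.5% called), with a median log2 difference of 0.36. The counts were 9 and 4 with the RLE scaling (median 0.071), 9 and 7 with DESeq2, 4 and 5 with voom and 4 and 3 without the week block. The higher ones had exonic lengths from 419 (Ndufa1) to 4995 bases (Ndufb5), among them Cox7b, with medians of 878 and 355 CPM (log2 difference 1.13, SE 0.26, adjusted p = 0.00734), and Ndufb9 (0.88, SE 0.20, adjusted p = 0.00658). The lower ones, of 3135 to 4237 bases, were Sdha of succinate dehydrogenase (log2 difference -1.21, SE 0.27, adjusted p = 0.00653) and Atp5a1 and Atp5b of the ATP synthase (-1.12 and -0.90). Of 25 redox and lysosome genes 6 were higher and 0 lower (24% called). Their median log2 difference of 0.25 turned to -0.026 with the RLE scaling. In 2 lists added after the values were seen, 0 genes were lower. There 51 of 77 cytosolic ribosomal protein genes (66.2%) and 5 of 10 tested proteins of the mitochondrial genome (50%) were higher. Under the RLE scaling, 35 of the 77 ribosomal genes were higher and 2 lower.

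Counts in the mitochondrial genome made up 2.01% ± 0.53 (SD, n = 18) of the HSC and 1.19% ± 0.63 (n = 16) of the HPC-2 libraries (permutation test, adjusted p = 0.00561). The permutation tests of library measures did not hold week as a block. In HPC-2 this share was 0.545% to 2.21% in weeks 5 to 10 and 0.308% to 0.563% in weeks 13 and 16. In HSC it was 1.11% to 2.57% and 1.12% to 2.84%. Length moved with these calls too. The 462 higher genes had a median exonic length of 2013 bases, the 137 lower genes 4045 bases and all tested genes 4199 bases. Among genes of at least 10 CPM with 500 to 1000 bases, 64 of 235 were higher and 3 lower, and among those of over 8000 bases 9 of 1425 were higher and 18 lower. With the short-gene share in the fit, 0 genes of the oxidative phosphorylation, ribosomal protein and mitochondrial genome lists were called, and their medians were -0.10, -0.011 and 0.21. The same was true of these 3 lists in a fit of weeks 5 to 10 only, with medians of 0.09, 0.24 and 0.46. Genes of under 1000 bases in these lists, such as Ndufa1, are counted in the share itself. The covariate therefore draws their difference towards 0. The 5 HPC-2 libraries of weeks 13 and 16 had the lowest shares as a group, 2.51% to 3.76%, against 3.36% to 9.01% in the 6 HSC libraries of those weeks.

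**Figure D4:**
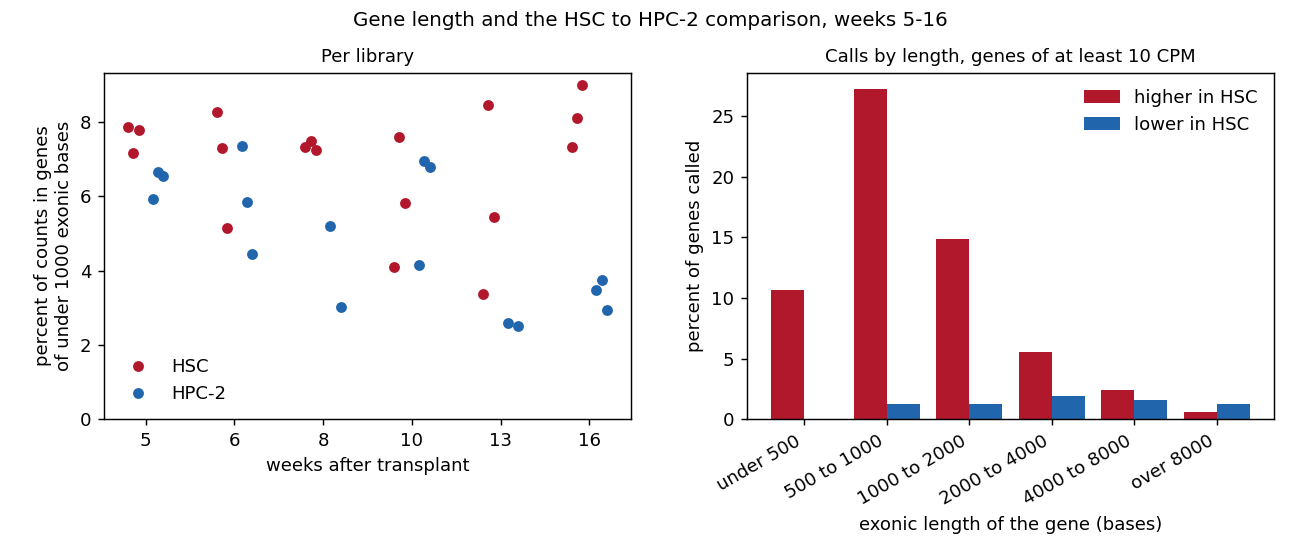
Left, percent of counts in genes of under 1000 exonic bases in each library by week, HSC in red and HPC-2 in blue; right, percent of genes called higher (red) or lower (blue) in HSC by exonic length, among genes of at least 10 CPM. HPC-2 libraries of weeks 13 and 16 lie between 2.51% and 3.76%, and higher calls are most frequent at 500 to 1000 bases, with 64 of 235 genes.

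The comparison was also made within 2 periods. In weeks 5 to 8, 14 genes were called (0.138%), 11 higher (0.108%) and 3 lower (0.0296%). They were Ipo11, Ifitm1, Gng11, Uba7, Myct1, Ppic, Nupr1, Gm19590, Guca1a, Gimap4 and Gimap6 on the higher side, and Jpt1, Tubb5 and Car1 on the lower side. In weeks 10 to 16, 429 genes were called (4.23%), 393 higher (3.87%) and 36 lower (0.355%), and with the RLE scaling 124 were higher and 73 lower. The difference between the periods was tested itself, and 0 genes were called by edgeR (0%; 375 at an unadjusted p under 0.05), against 126 by DESeq2. Without passing that test, Procr went from 5.58 to 11.77 and Il4 from 3.46 to 8.55 on the log2 scale. The mitosis median was -1.43 in weeks 5 to 8 and -1.75 in weeks 10 to 16. Leaving out 1 library moved the late count to 101 (HPC-2 13 weeks replicate 3), 124 (13 weeks replicate 2), 125 (16 weeks replicate 3), 217 (16 weeks replicate 2), 226 (16 weeks replicate 1), 261 (HSC 16 weeks replicate 2) or 731 (HSC 10 weeks replicate 1). It moved the early count to 8 or 9 without each of 8 libraries of weeks 5 to 8, and to 27 without HPC-2 16 weeks replicate 1.

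**Figure D5:**
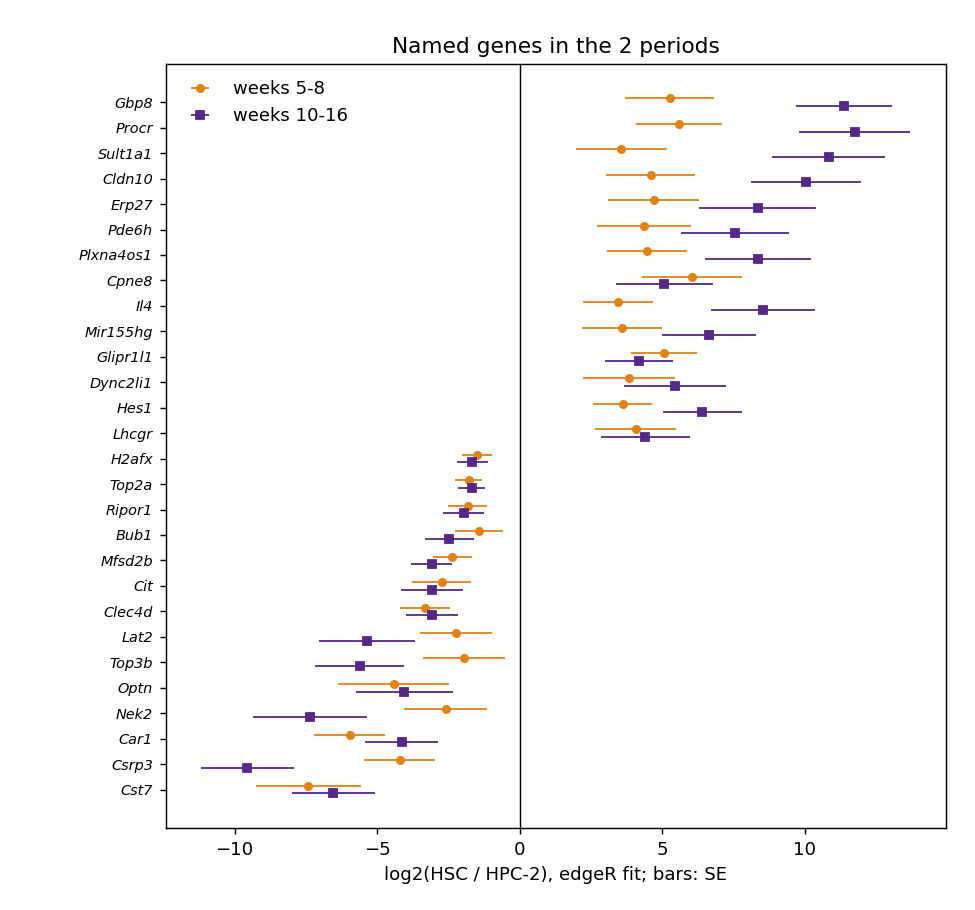
Log2 difference between HSC and HPC-2 of the 28 genes with the largest rises and falls, in weeks 5 to 8 (orange circles) and weeks 10 to 16 (purple squares), with SE as bars. Each gene lies on the same side of 0 in both periods, and Car1 goes from -5.96 to -4.14.

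The difference between HSC and HPC-2 was set against that at steady state, with 7 HSC and 5 HPC-2 libraries after 3 libraries with near-equal partners were left out. In all, 154 of 10371 genes differed (1.48%), 153 of them with a lower log2 difference after transplant than at steady state and 1 with a higher one (0.00964%). The stem cell factor Hlf was detected in all 7 HSC and in 0 of 5 HPC-2 libraries at steady state, but in 15 of 16 HPC-2 libraries at weeks 5 to 16 (adjusted p = 5.89e-06). Of the 5 steady-state HPC-2 libraries 4 had fewer than 10000 genes, and without libraries of that kind 3 genes were called. Leaving out 1 steady-state HPC-2 library gave 36 (replicate 6), 44 (replicate 1), 81 (replicate 3) or 869 (replicate 2), and leaving out HPC-2 16 weeks replicate 1 gave 232. Against weeks 3 and 4, with 6 HSC and 5 HPC-2 libraries, 1 of 10598 genes differed (0.00944%), and the count moved without 39 of 45 libraries left out in turn, from 0 without HPC-2 3 weeks replicate 1 to 245 without HPC-2 4 weeks replicate 3. The treatment label of HPC-2 3 weeks replicate 1 says untreated, against its title. The gene that differed was Zfp36l2, an RNA decay factor. It was at a median of 283 CPM in HSC and 142 CPM in HPC-2 in weeks 5 to 16, and 95.9 and 223 CPM in weeks 3 and 4.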

How the data were processed

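The deposited values were raw read counts per gene for 95 libraries. Per the submitters' processing notes, tools were Trimmomatic 0.36, HISAT2 2.0.5, Picard and featureCounts, with the builds GRCm38 and mm10; strand setting and gene models are not given in the sources used here. Among 53465 entries, 99.8% were found in GENCODE M21, which gave positions and exonic lengths. The 10k title of HSC 10 weeks replicate 2 was read as 10 weeks.

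Genes were kept by edgeR's filterByExpr, scaled by TMM and tested by the quasi-likelihood F test (edgeR 4.0.16, R 4.3.3), with week as a block and Benjamini-Hochberg adjustment over all genes tested. The period, steady-state and week 3 to 4 contrasts are interaction terms, with 1 spread shared by all groups in the fit. DESeq2 1.42.0 and limma 3.58.1 (voom) served as alternatives. The procedure was tested on simulated data. CPM are counts over the library total.

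The members and gene lists were chosen with earlier results of these data known. Named are the 14 largest rises and 14 largest falls among called genes averaging 10 CPM or more, where 80% of either population's libraries lay on that population's side of the midpoint, without predicted genes, then up to 4 members with the smallest p per list, the sort markers, and up to 4 genes per direction and interaction. Other genes named (such as genes that did not pass, genes without overlap, Mki67, Hlf, Id1 and the Gimap family) were chosen after their values were seen. SE was taken from the F statistic. Libraries were called nearly equal at a chi-square per degree of freedom under 5 over 4465 pairs. Some genes of the lists, and 1 gene without overlap, are not reported here.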

Additional observations from a re-analysis of the deposited data

Results flagged for a closer look

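The HSC to HPC-2 difference of 5 genes differed between weeks 5 to 16 and steady state by the interaction test, the 4 with the smallest p on the falling side and the 1 on the rising side. The change in log2 difference was -11.42 for Hlf, -9.67 for 4930555A03Rik, -10.54 for Zfp943 and -9.57 for Tnip3. All 5 steady-state HPC-2 libraries had no Hlf or 4930555A03Rik, and 1 of 5 had Zfp943 or Tnip3, so these fitted values depend on the prior count and are no bound. For Plac8, a gene of myeloid and lymphoid progenitors, the change was 2.41, from medians of 155 CPM in HSC and 890 CPM in HPC-2 at steady state to 795 and 1064 CPM at weeks 5 to 16. Zfp36l2 differed between weeks 5 to 16 and weeks 3 to 4, by 2.22.

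In the steady-state groups, 5 of these genes' values stood apart from the rest of their group by a test of gap over range. The test marks about 1 group in 20 by chance, but not where all other libraries of the group were at 0. There any count is marked, as for Zfp943 and Tnip3 in HPC-2. Hlf was at 35.4 CPM in 1 HSC library against 164 CPM in the next lowest. Tnip3 was at 0.419 CPM in 1 HSC library against 152 CPM, and at 0.301 CPM in the only HPC-2 library with a count. Zfp943 was at 0.150 CPM in the only HPC-2 library with a count. Zfp36l2 was at 3.71 CPM in 1 HPC-2 library against 99.6 CPM in the next lowest.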

How the results depend on the processing

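For weeks 5 to 16 the 599 calls (462 higher, 137 lower) became 1416 (968 and 448) without a filter on low counts, 940 (lower 344) without libraries of under 10000 genes, 364 (higher 237) without the week block, 1486 (lower 831) with DESeq2 and 1104 (lower 510) with voom and sample weights. RLE scaling gave 275 lower. Among alternatives added after the data were seen, the short-gene share as covariate gave 57 (39 and 18), weeks 5 to 10 alone 292 (higher 176), and leaving out the 3 HSC libraries nearer to a progenitor mean 223 lower. The covariate turned Cox7a2 to -0.040 and Cox7b to -0.0048, neither called. Leaving out each library in turn gave 417 to 720 calls, 332 to 542 higher and 85 (without HPC-2 8 weeks replicate 3) to 189 lower. Of 113 called genes followed, 87 were called without any 1 of the 34 libraries.

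The counts within periods and between times moved more. Weeks 5 to 8 gave 23 calls with RLE, 160 without a filter, 133 without libraries of under 10000 genes and 8 to 27 with 1 library left out, against 14. Weeks 10 to 16 gave 197, 785, 114 and 101 to 731, against 429. The difference between the periods gave 30 without a filter, 126 with DESeq2 and 0 in each of the 34 fits with 1 library left out. Against steady state the 154 calls became 93 with RLE, 629 without a filter, 1 with the left-out libraries, 3 without libraries of under 10000 genes and 36 (without HPC-2 steady-state replicate 6) to 869 (without replicate 2). Against weeks 3 to 4 the 1 call became 49, 199, 5, 2 and 0 (without HPC-2 3 weeks replicate 1, among others) to 245 (without HPC-2 4 weeks replicate 3). The cause of these moves was not tested.

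With the replicate number as a block within each week, 350 genes were called at weeks 5 to 16 (278 higher, 72 lower), 1 at weeks 5 to 8, 147 at weeks 10 to 16, 0 for the difference between the periods, 0 against steady state and 0 against weeks 3 to 4. Over 16 pairs of libraries with the same number and week, deviations from the group means correlated at -0.046 to 0.225 (median 0.021). Of these, 3 pairs were over 0.1, and 10 of 16 HPC-2 libraries correlated best with their own number. Each was set against the 3 HSC libraries of its week, so about 1 in 3 would do so by chance. The 10 of 16 lies above that share, which was not tested. The description labels number the HPC-1, HPC-2 and HSC libraries of the same week and replicate number consecutively. They do not say whether such libraries came from the same animals. Not every pair was over 0.1, but these correlations cannot settle whether the libraries were paired. The main fit kept week alone as the block, and the counts with the replicate block are those given above. The 2 left-out libraries moved no library measure across the threshold.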

Other observations

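Several called genes were picked after their values were seen. The Gimap genes, small GTPases of lymphocyte survival, were higher in HSC in 4 of 6 tested members (66.7% called, against 5.91% of all genes). Gimap4 had 0 counts in all 16 HPC-2 libraries and counts in 16 of 18 HSC libraries, with a median of 32.6 CPM (edgeR adjusted p = 4.89e-05). Set against a floor of 3 counts over the HPC-2 libraries, its pooled level was 1160-fold higher in HSC. That value pools the counts and leaves out the spread between libraries. Gimap6 was at 30.2 to 641 CPM in HSC (median 231) and 20.5 to 389 CPM in HPC-2 (median 62.2).

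Socs2, an inhibitor of cytokine signalling, was at 0 to 411 CPM in HSC (median 120) and 0 to 44.7 CPM in HPC-2 (median 18.3; log2 difference 3.59, SE 0.76). Id1, a target of BMP signalling, was at 0 to 329 CPM in HSC and 0 to 66.4 CPM in HPC-2, with medians of 14.9 and 0 CPM. In the list of TGF-beta and BMP signalling 1 of 20 tested genes was called (5%), near the 5.91% of all genes. Apoe, a lipid carrier, went the other way, at 71.4 to 855 CPM in HSC (median 473) and 532 to 1431 CPM in HPC-2 (median 880; log2 difference -0.79, SE 0.16, edgeR adjusted p = 0.0022).

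In HPC-1, the third population, at weeks 5 to 16, Procr had a median of 17.9 CPM and Ly6a of 220 CPM, both between the medians of HPC-2 and HSC, while Pf4 was at 18.2 CPM and Gata1 at 6.41 CPM, below both.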
